A study of Mus musculus with 6 samples.

Results

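The genes examined were 10 members of the interleukin-1 (IL-1) family and of the inflammasome: the cytokines Il1b, Il18 and Il33, the receptor antagonist Il1rn, the receptor Il1r1, the sensor Nlrp3, the adaptor Pycard, the proteases Casp1 and Casp4, and the pore-forming protein Gsdmd. They were found by the Ensembl identifier of each gene, and all 10 were among the 22556 genes listed. RNA sequencing of whole mouse pancreas gave 1 value as TPM (transcript abundance scaled for length and depth) per gene and mouse. The scaling for length lets levels of different genes be set side by side. The groups each held 2 male wild-type C57BL/6 mice, given as week 8 after birth in the labels and as 8 to 10 weeks in the methods. The saline group had no pancreatitis. The AP group had acute pancreatitis from 10 injections of caerulein (cerulein in the labels) given 1 h apart, with the pancreas taken 24 h after the first. The polyI:C+AP group received in addition polyI:C, a synthetic double-stranded RNA, at 10 mg/kg before caerulein. The methods name intervals of 1 h and 8 h, and which of them the sequenced mice had is not given. Caerulein is a secretagogue that overstimulates acinar cells. The authors reported edema, necrosis and infiltrating inflammatory cells after it. No group received polyI:C alone.

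IL-1β and IL-18 are made as inactive precursors. A sensor such as NLRP3 recruits the adaptor ASC (the product of Pycard), which activates caspase-1, and caspase-1 cleaves both precursors as well as gasdermin D. The freed part of gasdermin D forms pores through which the cytokines leave the cell. Caspase-4 (also called caspase-11 in mice) cleaves gasdermin D after sensing bacterial lipopolysaccharide. IL-1β signals through IL1R1, and the antagonist encoded by Il1rn binds that receptor without activating it. IL-33 is an alarmin stored in the nucleus and does not need caspase-1. RNA levels measure neither the cleavage of these proteins nor the release of the cytokines.

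Depth was judged from the spacing of low TPM values, which allowed an estimate of 3297136 to 10826817 reads per library. The saline libraries were the smallest, with 3961586 and 3297136 estimated reads. The second polyI:C+AP mouse stood apart from the other 5. All 15 of a list of intestinal epithelium markers, written after this library had been seen, were highest there. Their summed level was 4245 TPM in it and 4.69 to 8.74 TPM in the other 5 mice. Fabp1 stood at 1430 TPM and Sis at 323 TPM in it. Cdx1, Cdx2, Apoa4 and Isx were at 0 in each of the 5 others and above 0 in this mouse. The fitted difference of each member in the comparisons with polyI:C is therefore given with and without this mouse. Counts of groups that do not overlap, calls by voom and pathway genes at an unadjusted p rest on all 6 mice. Of 14 acinar markers, the 5 that were in the tables (Amy2a5, Bhlha15, Rbpjl, Ptf1a and Nr5a2) were above 0 in all 6 mice and summed to 1056 and 872 TPM in saline, 342 and 291 TPM in AP and 643 and 662 TPM in polyI:C+AP. Whole tissue was sequenced, so that fewer cells of a type and less RNA per cell cannot be told apart.

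Promoter sequence is shown for the 2 members with the largest fitted rise in AP, Il1b and Il1rn, and for Casp4, whose promoter held a searched motif. RefSeq windows of 250 bases before a transcript start on GRCm38.p6 were given for 9 of the 10 members, with Gsdmd the exception. Bases inside an annotated exon of the gene were searched but are not printed in these stretches. Capitals mark a match to GGG, any 2 bases and TTTCC, one form of the binding site of NF-κB, a transcription factor of inflammation, searched on both strands.
Il1b, chr2:129371140-129371389, minus strand: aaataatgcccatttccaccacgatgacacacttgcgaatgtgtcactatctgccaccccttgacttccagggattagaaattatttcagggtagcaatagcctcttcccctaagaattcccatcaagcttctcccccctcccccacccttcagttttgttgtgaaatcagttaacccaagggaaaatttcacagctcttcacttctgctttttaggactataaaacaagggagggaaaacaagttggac
Il1rn, chr2:24336610-24336852, plus strand: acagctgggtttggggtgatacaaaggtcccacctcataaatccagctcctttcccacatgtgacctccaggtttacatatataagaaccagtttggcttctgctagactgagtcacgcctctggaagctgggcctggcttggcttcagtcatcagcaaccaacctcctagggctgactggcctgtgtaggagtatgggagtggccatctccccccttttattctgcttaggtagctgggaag
Casp4, chr9:5308599-5308827, plus strand: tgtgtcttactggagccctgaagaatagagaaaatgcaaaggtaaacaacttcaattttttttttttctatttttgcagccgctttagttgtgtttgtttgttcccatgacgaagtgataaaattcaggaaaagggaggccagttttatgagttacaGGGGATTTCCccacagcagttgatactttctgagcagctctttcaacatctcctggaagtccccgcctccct
The Casp4 match shown began 93 bases before the RefSeq start. A second match in that window, GGAAATGCCC on the minus strand, began 14 bases before the start, in bases annotated as exon. Il1rn has other RefSeq starts, and the window before one of them held the match GGGTTTTTCC, 51 bases before that start and likewise in bases annotated as exon. Of all 32851 promoter windows, 1.41% held this form. The core of the interferon-stimulated response element, which is GAAA, any 2 bases and GAAA, was in 2.98% of the windows and in none of the members'. No window of a member held both forms, and a match or its absence describes letters only.

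The question of the first comparison was which of these genes differ in the inflamed pancreas. Of the 9 members tested, Il1b, Il1rn, Il1r1 and Casp4 rose in AP against saline and none fell. A gene was called at an adjusted p of at most 0.05 (limma, Benjamini-Hochberg over 16814 genes that averaged 1 TPM or more) together with a fold change of at least 2, which is 1 on the log2 scale. By that rule 18.2% of all tested genes were called higher and 4.03% lower. The median log2 fold change of the 9 members was 1.29, and that of all tested genes was 0.45. With median-of-ratios scaling the median of all genes was 0.05. Both AP mice were above both saline mice for 8 of the 9 members, beside 52.6% of all tested genes. Fold changes are differences of log2(TPM + 0.5), which makes those of genes near 0 smaller than the change in TPM. Every fitted change of the 9 members in AP against saline was above 0 under all the scalings tried.

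**Figure D1:**
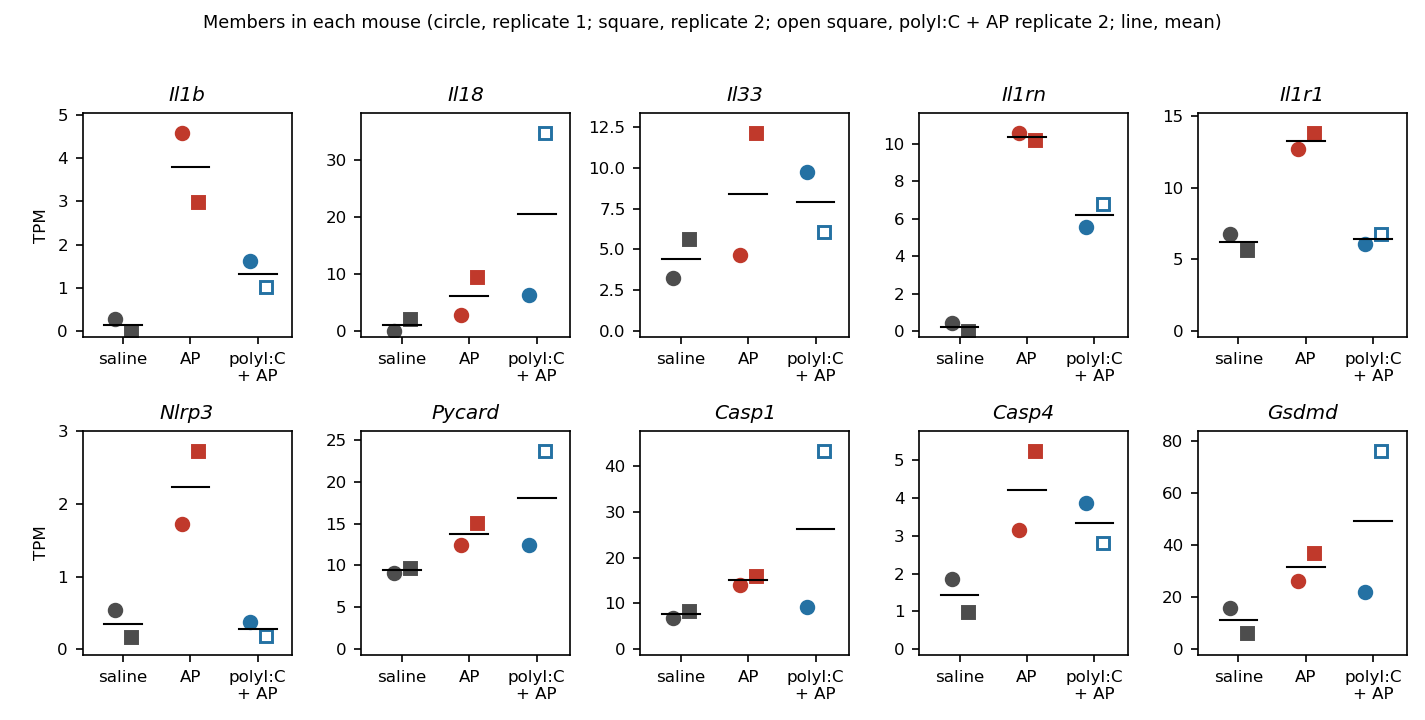
TPM of each member (vertical axis, 1 panel per gene, each with its own scale) in the saline, AP and polyI:C+AP mice, with circles for replicate 1, squares for replicate 2 and a line at the mean of 2. Il1rn and Il1r1 have AP mice close together and above all other mice, while for Il18, Casp1, Pycard and Gsdmd the open square, the polyI:C+AP mouse with intestinal genes, is the highest point.

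Among the ligands, Il1b (ENSMUSG00000027398, chr2:129364570-129371139) was measured at 0.291 and 0 TPM in saline, 4.58 and 2.99 TPM in AP and 1.62 and 1.03 TPM in polyI:C+AP. The groups did not overlap, in the order saline, polyI:C+AP, AP. These are few reads: 1 and 0 in saline, 23 and 19 in AP, 10 and 8 in polyI:C+AP. In AP against saline the log2 fold change was 2.74 (SE 0.58, limma adjusted p = 0.00959), and with libraries thinned to the smallest it was 2.77 (limma adjusted p = 0.0307). Pooled per read, 42 reads in AP against 1 in saline gave a ratio of 19.4, with an exact 95% interval of 3.29 to 783 that covers counting error only. Without the first AP mouse the call was lost at 2.47 (limma adjusted p = 0.0643). The 0 in the second saline library allows up to 1.07 TPM, the level of 3 reads. Il1b reached a mean of 1 TPM only through the AP mice, so its rise and its place among the tested genes are not independent. Fitted without this filter, the change was the same (limma adjusted p = 0.0107). Il1b shares 25 exonic bases with the antisense gene Il1bos.

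Il18 (ENSMUSG00000039217, chr9:50554827-50581840) was at 0 and 2.10 TPM in saline, 2.91 and 9.44 TPM in AP and 6.41 and 34.7 TPM in polyI:C+AP. The 2 AP mice differed from each other by more than the lower one differed from saline. Behind the values, by a unit of the gene itself, stood 0 and 4 reads in saline, 10 and 41 in AP and 27 and 184 in polyI:C+AP. By the spacing of each library they were 0 and 2.56 in saline, 6.38 and 26.3 in AP and 17.3 and 118 in polyI:C+AP. By the unit of the gene, a count of 0 in the first saline library allows a level of up to 1.28 TPM, that of 3 reads. The fitted change in AP against saline, 2.35 (SE 1.06), did not pass (limma adjusted p = 0.125). Its 95% interval ran from -0.19 to 4.89.

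Il33 (ENSMUSG00000024810, chr19:29925114-29960718) was at 3.26 and 5.61 TPM in saline, 4.63 and 12.1 TPM in AP and 9.73 and 6.06 TPM in polyI:C+AP. It was the 1 tested member whose AP mice overlapped saline, since the first AP mouse lay below the second saline mouse. The fitted change was 0.75 (SE 0.50, limma adjusted p = 0.285).

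The antagonist Il1rn (ENSMUSG00000026981, chr2:24336853-24351494) showed the largest fitted change of the members. It was at 0.423 and 0 TPM in saline, 10.6 and 10.2 TPM in AP and 5.56 and 6.81 TPM in polyI:C+AP. The AP mice were nearly equal, and every mouse given caerulein was over 10 times the higher saline mouse. In AP against saline the log2 fold change was 4.0 (SE 0.32, limma adjusted p = 0.000244), and with median-of-ratios scaling it was 3.80. About 3 reads in saline against 276 in AP gave a ratio per read of 42.4, with an exact 95% interval of 14.4 to 207 for counting error only.

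Il1rn was above Il1b in every mouse given caerulein. In the first saline mouse about 3 reads stood against 1, too few to order the genes, and in the second both were at 0. The linear ratio of Il1rn to Il1b in TPM was 2.31 and 3.41 in AP and 3.43 and 6.60 in polyI:C+AP. The lower polyI:C+AP ratio differed little from the higher AP ratio, and 2 mice against 2 cannot give an exact two-sided permutation p below 0.333, so no test was made.

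The receptor Il1r1 (ENSMUSG00000026072, chr1:40225080-40317257) was at 6.80 and 5.63 TPM in saline, 12.7 and 13.8 TPM in AP and 6.10 and 6.75 TPM in polyI:C+AP. Both AP mice were well above the other 4, and the polyI:C+AP mice lay within the range of saline. The change in AP against saline was 1.04 (SE 0.17, limma adjusted p = 0.00365). It sat just past the 2-fold limit, and with median-of-ratios scaling it was 0.63 (limma adjusted p = 0.0311), short of that limit. Leaving out the second saline mouse gave 0.91, and leaving out the second AP mouse 0.98.

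The sensor Nlrp3 (ENSMUSG00000032691, chr11:59541568-59566956) was at 0.532 and 0.164 TPM in saline, 1.73 and 2.73 TPM in AP and 0.370 and 0.177 TPM in polyI:C+AP. The AP mice were above all others, at 19 and 38 reads, while saline had 4 and 1 and polyI:C+AP 5 and 3. Its mean of 0.950 TPM kept it below the filter, so it is not among the 9 members tested. Fitted without a filter, the change in AP against saline was 1.70 (SE 0.46, limma adjusted p = 0.0436). The call was lost with libraries thinned to the smallest (1.59, limma adjusted p = 0.122) and without the second polyI:C+AP mouse (1.70, limma adjusted p = 0.0913).

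The adaptor gene Pycard (ENSMUSG00000030793, chr7:127989708-127993867) was at 9.05 and 9.74 TPM in saline, 12.5 and 15.03 TPM in AP and 12.4 and 23.7 TPM in polyI:C+AP. The change in AP, 0.52 (SE 0.30, limma adjusted p = 0.219), was close to the median of all genes. Pycard shares 485 exonic bases, 12.8% of its length, with the gene model Gm45205 on the other strand. Whether reads were counted by strand is not given.

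Casp1 (ENSMUSG00000025888, chr9:5298517-5307265) was at 6.86 and 8.44 TPM in saline, 14.1 and 16.1 TPM in AP and 9.18 and 43.4 TPM in polyI:C+AP. Both AP mice were above both saline mice, yet the shared estimate of the spread included the wide polyI:C+AP pair. The change in AP was 0.94 (SE 0.64, limma adjusted p = 0.296). Without the second polyI:C+AP mouse the same change had an SE of 0.21 (limma adjusted p = 0.0456) and stayed below 2-fold.

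Casp4 (ENSMUSG00000033538, chr9:5308828-5336783), whose gene lies next to Casp1, was at 1.85 and 0.995 TPM in saline, 3.16 and 5.25 TPM in AP and 3.87 and 2.82 TPM in polyI:C+AP. All 4 mice given caerulein were above both saline mice. The change in AP was 1.29 (SE 0.41, limma adjusted p = 0.0459). This call was at the threshold and passed in 5 of 19 alternatives, which ranged from 0.73 to 1.62 with limma adjusted p of 0.0459 to 0.242. Without the second polyI:C+AP mouse it was lost (limma adjusted p = 0.0961).

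Gsdmd (ENSMUSG00000022575, chr15:75862327-75867408) had the highest mean of the members in each group. It was at 15.8 and 6.17 TPM in saline, 26.1 and 37.1 TPM in AP and 22.1 and 76.2 TPM in polyI:C+AP. The saline mice differed by more than 2-fold. The change in AP was 1.60 (SE 0.63, limma adjusted p = 0.0858) and did not pass.

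**Figure D2:**
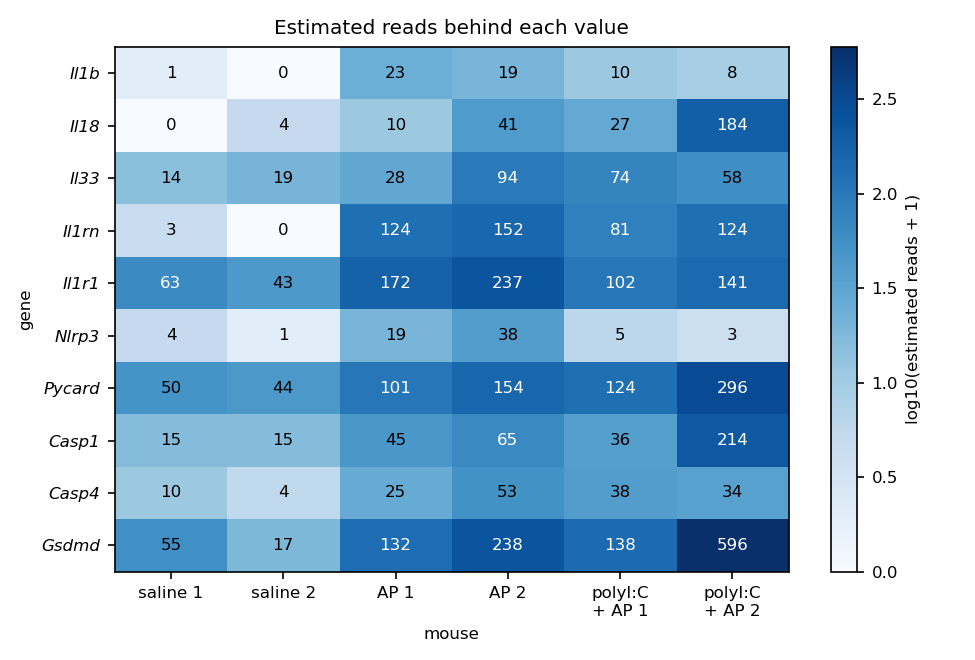
Estimated reads behind each value, 1 row per gene and 1 column per mouse, with the number written in each cell and the colour on a log10(reads + 1) scale. Il1b, Il18, Il1rn and Nlrp3 rest on 0 to 4 reads in the saline mice, and Il1r1, Pycard and Gsdmd on at least 17.4.

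By mean level the order in saline was Gsdmd, Pycard, Casp1, Il1r1, Il33, Casp4, Il18, Nlrp3, Il1rn and Il1b. Gsdmd overlapped Pycard there, and the 5 lowest each overlapped their neighbour. In AP the order was Gsdmd, Casp1, Pycard, Il1r1, Il1rn, Il33, Il18, Casp4, Il1b and Nlrp3. Gsdmd stood clear of Casp1, and Il1rn had moved from the ninth to the fifth place. Casp1, Pycard and Il1r1 overlapped in turn, as did Il1rn, Il33, Il18, Casp4 and Il1b.

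The second comparison asked how polyI:C pretreatment changed these genes in AP. It shares the AP mice with the first, so that the opposite direction of a gene in both is not independent. None of the 9 members was called in either direction, beside 0.44% of all tested genes called higher and 0.404% called lower. At an unadjusted p under 0.05, 1 member passed, Il1r1, beside 13.9% of all genes, and limma's voom on estimated reads called the same gene. The median change of the 9 members was 0.03, and that of all genes 0.04. The second polyI:C+AP mouse left its mark on this median: without it the members' median was -0.48 and that of all genes 0.05. Without it, 0% of genes were called higher and 0% lower by limma, and 9.2% passed an unadjusted p under 0.05.

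Il1b, Il1rn and Il1r1 were the 3 of 9 members for which both polyI:C+AP mice were below both AP mice, beside 22.1% of all tested genes. No tested member had both mice above, beside 27.7% of all genes. Il1r1 differed by -0.99 (SE 0.17, 95% interval -1.40 to -0.58, limma adjusted p = 0.058). It was called lower with quantile normalization (-1.04, limma adjusted p = 0.0371) and with limma's voom on estimated reads (-1.07, limma adjusted p = 0.0143), and over all alternatives the adjusted p ran from 0.0143 to 0.426. Without the second polyI:C+AP mouse the value was -1.06 (limma adjusted p = 0.356).

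Il1b differed by -1.22 (SE 0.58, limma adjusted p = 0.424), and without that mouse by -0.99 (limma adjusted p = 0.716). Il1rn differed by -0.71 (SE 0.32, limma adjusted p = 0.398), and without that mouse by -0.84 (limma adjusted p = 0.676). These intervals reached 0 and so did not show a difference. Nlrp3, fitted without a filter, differed by -1.81 (SE 0.46, limma adjusted p = 0.211), and without that mouse by -1.62 (limma adjusted p = 0.475). Its polyI:C+AP values lay at or below 5 reads. Il33 differed by 0.03 (SE 0.50, limma adjusted p = 0.992) and Casp4 by -0.27 (SE 0.41, limma adjusted p = 0.838), and without that mouse by 0.35 and -0.07, with intervals wide on both sides of 0.

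The second polyI:C+AP mouse was the highest of all 6 for Il18, Casp1, Pycard and Gsdmd. In it Il18 was 3.68 times, Casp1 2.70 times and Gsdmd 2.05 times the highest other mouse. That made 3 of 9 members past 2 times the highest other mouse, beside 2.75% of all tested genes. With it the fitted differences from AP were 0.41 for Casp1, 0.32 for Pycard and 0.40 for Gsdmd. Without it they were -0.68 for Casp1, -0.14 for Pycard and -0.48 for Gsdmd, with limma adjusted p of 0.581, 0.887 and 0.877. Il18 stood at 1.42 with it and at 0.25 without it, neither of which passed. The part of the intestinal genes in these values was not tested.

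Several other genes of these pathways were also highest in this mouse. Nlrp6, an inflammasome sensor of the intestine, was at 7.86 TPM there and at 0.261 TPM or less elsewhere. Nlrc4, the sensor partner of the NAIP proteins, was at 12.8 TPM there and at 0.535 to 2.51 TPM elsewhere. Naip1, a receptor for bacterial secretion needles, was at 9.29 TPM there and at 2.42 TPM or less elsewhere. The cytokine gene Il1a was at 4.30 TPM there and at 2.08 TPM or less elsewhere. Of the 46 tested members and pathway genes, 7 exceeded 2 times the highest other mouse, beside 2.75% of all tested genes. The filter counted this mouse, and Nlrp6 and Naip1 reached a mean of 1 TPM only through it. The ratio of Il18 to Il33 was 5.73 in this mouse and at most 0.779 in the others. The ratio of Casp1 to Casp4 was 15.4 in it and 2.37 to 8.48 in the others.

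**Figure D3:**
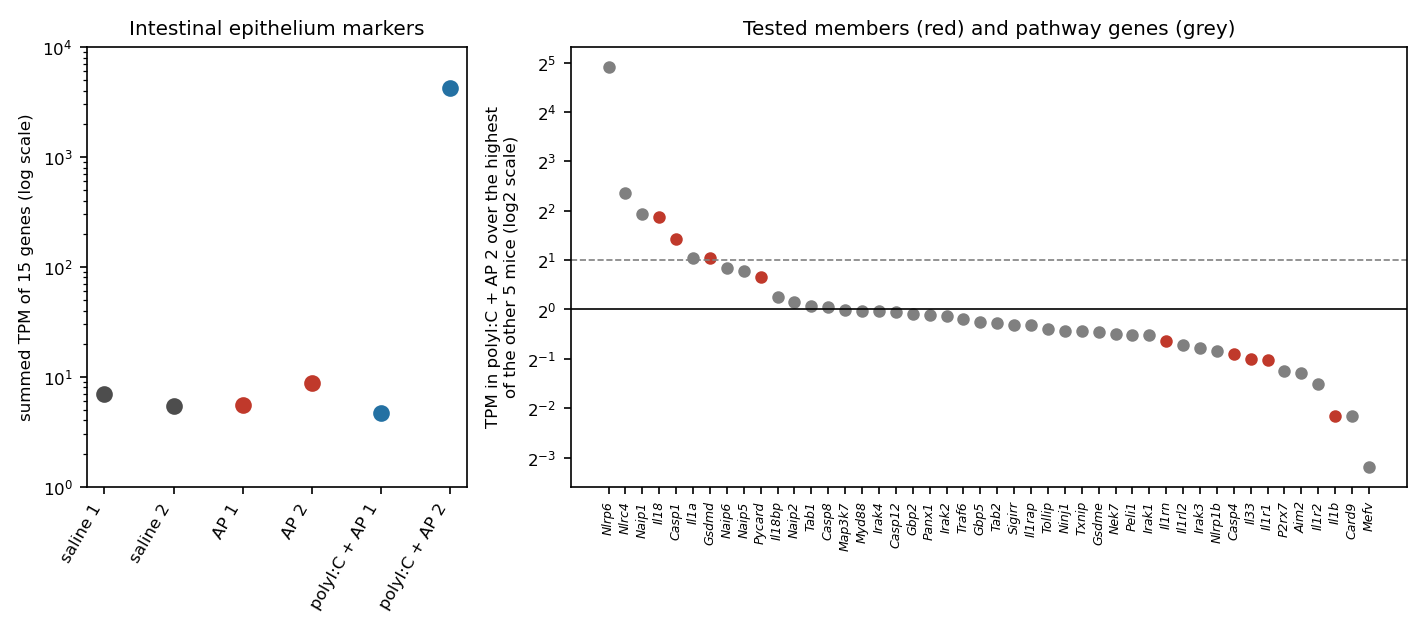
Left, summed TPM of 15 intestinal epithelium markers in each mouse on a log axis. Right, TPM in the second polyI:C+AP mouse over the highest of the other 5 for each tested member (red) and pathway gene (grey) on a log2 axis, with a dashed line at 2: Nlrp6, Nlrc4, Naip1, Il18, Casp1, Il1a and Gsdmd lie above it, and Il1b, Il1rn, Casp4, Il33 and Il1r1 lie below 1.

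In polyI:C+AP against saline, Il1rn, Il18 and Gsdmd were called higher and no member was called lower, beside 16.9% and 2.97% of all tested genes. The median change of the 9 members was 1.34, and of all genes 0.49, and without the second polyI:C+AP mouse these were 1.118 and 0.48. For 8 of the 9, Il1r1 the exception, both polyI:C+AP mice were above both saline mice, beside 54.4% of genes. Without the second polyI:C+AP mouse, 12.3% of genes were called higher and 2.02% lower, and Il1rn alone of the members kept its call. Its change was 3.29 (SE 0.32, limma adjusted p = 0.000519) with that mouse and 3.16 (limma adjusted p = 0.0266) without it.

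Il18 rose by 3.77 (SE 1.06, limma adjusted p = 0.0301) with that mouse, and without it the value was 2.60 (limma adjusted p = 0.241). Gsdmd rose by 2.00 (SE 0.63, limma adjusted p = 0.0442) with that mouse, and without it the value was 1.12 (limma adjusted p = 0.286). Casp1 went from 1.34 to 0.25 and Pycard from 0.84 to 0.39 when the mouse was left out, and neither passed in either case. Il1b stood at 1.52 (limma adjusted p = 0.0797) with that mouse and at 1.75 without it (limma adjusted p = 0.117). Casp4 stood at 1.02 (limma adjusted p = 0.0954) with it and 1.22 without it, and Il33 at 0.77 and 1.09. Il1r1 was at 0.05 (95% interval -0.36 to 0.46) with it and at -0.02 without it. Nlrp3, from the fit with no filter, was at -0.11 with that mouse and 0.07 without it.

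**Figure D4:**
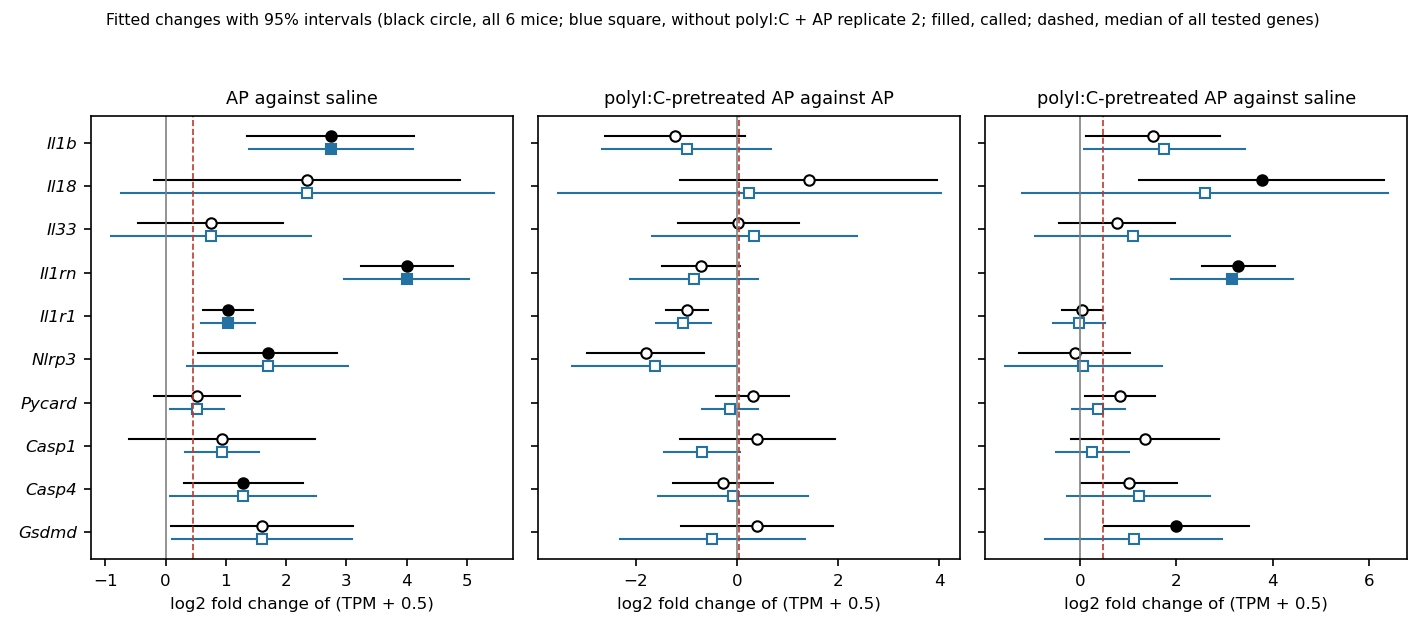
Fitted differences of log2(TPM + 0.5) with 95% intervals (horizontal axis) for each member, with all 6 mice (black) and without the second polyI:C+AP mouse (blue). Filled symbols passed the threshold, the dashed line is the median of all tested genes, and Nlrp3 is from the fit without a filter. Il1rn is the one member filled in both colours in both comparisons with saline, and no symbol is filled in polyI:C+AP against AP.

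The other genes of the pathways were taken from 3 lists. Of 6 tested genes of the IL-1 family and its receptors, 0 were called in AP against saline by limma or by voom. Sigirr and Il1rap passed an unadjusted p under 0.05, beside 48.9% of all tested genes. In polyI:C+AP against saline 2 of these 6 were higher, Il18bp, the decoy that binds IL-18, by 1.17 and Sigirr, an inhibitory receptor, by 1.01, and both kept their call without the second polyI:C+AP mouse. In polyI:C+AP against saline, 16.9% of all tested genes were called higher. The list median in AP was 0.59, near the 0.45 of all genes.

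Of 11 genes of signalling below the receptor, 2 rose in AP, the same share as the 18.2% of all tested genes: Myd88, the adaptor of IL-1 and Toll-like receptors, by 2.24 (SE 0.34, limma adjusted p = 0.00262) and Irak4, the kinase it recruits, by 1.54 (SE 0.14, limma adjusted p = 0.000417). Myd88 was at 5.14 and 11.9 TPM in saline, 38.3 and 39.9 TPM in AP and 35.9 and 39.3 TPM in polyI:C+AP. Irak4 was at 7.33 and 8.60 TPM in saline, 22.9 and 25.2 TPM in AP and 22.7 and 24.6 TPM in polyI:C+AP. For both, all 4 mice given caerulein were above saline and the polyI:C+AP range met that of AP. The median of this list, 0.22, was below that of all genes.

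Of 20 tested genes of inflammasomes and pyroptosis, 8 rose in AP and 0 fell, beside 18.2% and 4.03% of all tested genes. The list median was 0.99, and that of all genes 0.45. The largest fitted rise on this list was that of Mefv, which encodes the sensor pyrin, from 0 in both saline mice to 3.60 and 6.14 TPM in AP. It stood at 0.0772 and 0.675 TPM in polyI:C+AP. Nlrp1b, another sensor, rose by 2.15, Naip2, a receptor for bacterial secretion rods, by 1.29, and Nek7, which binds NLRP3, by 1.13. Mefv and Nlrp1b reached a mean of 1 TPM only through the AP mice. Their rise and their place among the tested genes are therefore not independent. The saline libraries were the smallest, and the reads behind the values of Mefv and Nlrp1b are not given. Casp8, an apoptotic caspase, rose by 1.67, Txnip, the thioredoxin-interacting protein, by 1.02, Gbp2, an interferon-induced GTPase, by 1.82, and P2rx7, the ATP-gated channel that triggers NLRP3, by 1.33. The call of P2rx7 was lost without the second polyI:C+AP mouse.

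None of the 37 tested genes in these lists was called in polyI:C+AP against AP by limma. At an unadjusted p under 0.05, 7 passed (Card9, Gbp2, Gbp5, Il18bp, Mefv, Naip2 and Txnip), beside 13.9% of all tested genes. Calls by voom were Gbp2 higher and Mefv lower. Mefv was tested only through the AP mice, as given above, and Gbp5 only through the polyI:C+AP mice. Against saline, 6 of the 20 inflammasome genes were higher in polyI:C+AP: Naip2, Nek7, Casp8, Casp12, Gbp2 and Gbp5. Card9, an adaptor of fungal sensing, was lower. Of all tested genes, 16.9% were called higher and 2.97% lower in this comparison. Card9 was at 14.3 and 9.49 TPM in saline, 9.47 and 7.98 TPM in AP and 2.78 and 3.22 TPM in polyI:C+AP. Gbp2 was at 8.82 and 5.56 TPM in saline, 20.6 and 33.1 TPM in AP and 73.1 and 69.0 TPM in polyI:C+AP. With that library left out, Casp12 and Gbp5 lost their call. Myd88 and Irak4 were also called higher against saline, by 2.18 and 1.52, and Myd88 lost its call without that mouse.

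Markers of several cell types moved with the groups. Of 13 monocyte and macrophage markers, 11 rose in AP and 7 fell in polyI:C+AP against AP, with summed levels of 729 and 483 TPM in saline, 2805 and 3225 TPM in AP and 783 and 644 TPM in polyI:C+AP. When the second polyI:C+AP mouse was left out, 10 of the 13 rose in AP and none was called in polyI:C+AP against AP, where the list median was -1.97 with it and -1.96 without it. Il1b, Il1rn, Il1r1 and Nlrp3 were highest in the 2 AP mice. Of all tested genes, 52.6% had both AP mice above both saline mice, and 22.1% had both polyI:C+AP mice below both AP mice. The share of all genes with both orders at once was not computed. Of 8 fibroblast and stellate markers, 4 rose in AP, beside 18.2% of all tested genes, and 0 were called in polyI:C+AP against AP. Some of these calls in AP were lost without the second polyI:C+AP mouse. They summed to 855 and 634 TPM in saline, 802 and 976 TPM in AP and 834 and 710 TPM in polyI:C+AP. The 9 neutrophil markers in the tables summed to 16.9 and 5.15 TPM in saline, 69.6 and 61.7 TPM in AP and 44.3 and 22.0 TPM in polyI:C+AP. Lymphocyte markers summed to 28.0 TPM in the second AP mouse and to 5.51 to 10.8 TPM in the others. Duct markers summed to 1339 and 1615 TPM in saline and to 11185 to 15966 TPM in the 4 mice given caerulein. The part of these cell types in the members' values was not tested.

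Of 9 interferon response genes, 8 rose in AP and 5 rose further in polyI:C+AP against AP. They summed to 31.4 and 23.7 TPM in saline, 134 and 210 TPM in AP and 727 and 691 TPM in polyI:C+AP. With the second polyI:C+AP mouse left out, 5 were called higher in AP and none in polyI:C+AP against AP, where the list median was 2.55 with it and 2.625 without it. None of the 10 members had both polyI:C+AP mice above both AP mice, the order of these sums, beside 27.7% of all tested genes. For Il18, Casp1, Pycard and Gsdmd the second polyI:C+AP mouse alone was above both AP mice. A link of the members to the interferon genes was not tested.

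Genes with the pattern most like that of each called member were found by the root mean square difference of the 6 centred log2(TPM + 0.5) values. Il1b was nearest to Arsi (0.122) and Postn (0.190). Il1rn was nearest to Stx11 (0.138) and Rasl10a (0.203). Il1r1 was nearest to Col27a1 (0.062) and Pole2 (0.076). Casp4 was nearest to Lrrc49 (0.056) and Rps13-ps1 (0.095). With all mice Il18 was nearest to Tspan8 (0.416) and Cldn2 (0.483) and Gsdmd to Ceacam16 (0.239) and Agrp (0.268). In the other 5 mice Il18 was nearest to Gm8338 (0.179) and Gsdmd to C1qc (0.067). The nearest gene stayed the same for Il1b and Casp4 alone of these 6. The likeness is over 6 mice in 3 groups and is a description.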

How the data were processed

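The authors deposited 1 table of TPM per mouse. The submitters' processing notes name Trimmomatic, STAR, HTSeq, DESeq2 and mm10. The labels name 2 stranded kits and 1 lane for all libraries, and the strand setting of the counting is not given in the sources used here. Positions and exon lengths came from GENCODE M21 (GRCm38). Its identifiers matched 22490 of 22556 genes.

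The design planned limma for TPM. limma 3.58.1 (R 4.3.3) was run on log2(TPM + 0.5) over all 6 mice, with 1 coefficient per group and p-values adjusted by Benjamini-Hochberg. With 2 mice a group, p-values measure only the spread between these mice. Tested on simulated data for AP against saline, 125 of 192 genes changed 4-fold were recovered (65.1%) among 16753, beside 16 false calls. The simulation gave all genes and groups the same assumed spread, changed few genes and held no library that stood apart. It therefore does not give the share recovered in these data.

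Estimated reads are TPM times exon length over the spacing of low values. Low values lay within 0.1 of whole reads for 50.7% to 62.1% of genes, against 17.6% to 18.8% with shuffled lengths, too few for a count test to be the main one. For Il1b, Il18, Nlrp3 and Casp1 a unit of the gene itself was used. This unit was 0.809, 0.641, 0.787 and 0.997 of a read by the library spacing, which makes their counts higher. It was chosen after seeing the data and set as the value nearest to 1 read that brought all values up to 50 reads within 0.1 of whole numbers. Intervals and limits from reads cover counting error only. No member shared a 100-base stretch with another gene.

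The members and lists were chosen with earlier results of these data known. All members are named, and of the pathway lists those called. The alternatives that leave the second polyI:C+AP mouse out of the pathway lists, and out of the fit with no filter, were chosen after seeing the data.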

Additional observations from a re-analysis of the deposited data

How the results depend on the processing

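Each comparison was repeated under 20 alternatives. The number of members called higher in AP against saline, 4 of 9, became 2 (Il1b and Il1rn) with median-of-ratios scaling, quantile normalization and voom, and 2 to 4 when 1 mouse was left out. A minimum of 10 estimated reads in every mouse left 5 members, without Il1b, Il1rn and Casp4, and 2 were then called, Il1r1 and Gsdmd. In polyI:C+AP against saline the number, 3 of 9, became 1 (Il1rn) without a filter, with median-of-ratios scaling, quantile normalization, a prior following the mean level, voom and the 2 groups alone, 1 of 5 (Gsdmd) with at least 10 reads, 5 of 9 on unadjusted p, and 1 to 3 when 1 mouse was left out. The count called lower in polyI:C+AP against AP went from 0 to 1 (Il1r1) with quantile normalization and voom. The cause was not tested.

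Directions turned only where fitted differences were small. Il33 in polyI:C+AP against AP became -0.031 with quantile normalization, -0.11 with voom, -0.41 after thinning, -0.62 without AP replicate 1 and -0.29 without polyI:C+AP replicate 1, and ran from -0.62 to 0.67 as each mouse was left out. Without polyI:C+AP replicate 2, Casp1 became -0.68, Pycard -0.14 and Gsdmd -0.48, and over all mice left out in turn they ran up to 1.497, 0.77 and 1.28. Casp4 became 0.056 without AP replicate 2 and ran down to -0.60. Il1r1 in polyI:C+AP against saline became -0.37 with median-of-ratios scaling, -0.49 with quantile normalization, -0.24 with voom, -0.076 without saline replicate 2 and -0.018 without polyI:C+AP replicate 2. It ran up to 0.18 as each mouse was left out and up to 0.251 over all alternatives. Of the other values for single members, 51 lost their call, 11 gained one and the rest kept direction and side of the threshold.

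Mice of the same number did not deviate together (correlations of 0.0075, -0.0039 and 0.0351 over 16814 genes), so the numbers were not taken as pairs. With the replicate block, 4 members were still called in AP against saline, with Il18 gained (limma adjusted p = 0.0066) and Casp4 lost (0.0652), and 2 against saline in polyI:C+AP, with Gsdmd lost (0.0535).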
